A study of Mus musculus with 6 samples.

Results

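The genes of the unfolded protein response and the integrated stress response were compared between lines of CT26, a mouse colon carcinoma cell line. The 38 genes form a list of known members of these pathways, matched by symbol with no threshold on their values, and all 38 were found among the 53801 genes of the tables. They comprise 5 sensors and their transcription factors, 16 targets of the transcription factor ATF4, 14 endoplasmic reticulum (ER) chaperones and folding factors, and 3 genes of ER-associated degradation. RNA-seq had been done on 6 libraries, 2 each (replicates A and B) from the parental line and from the lines B04 and B64. The purpose, per the study, was to ask how transcription differs in clones that resist immune checkpoint blockade (ICB).

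The parental libraries came from bulk CT26 cells that had been recovered from engrafted tumors. B04 and B64 were each grown from 1 cell, likewise taken from engrafted tumors, and carry different barcodes. A difference between lines is thus a difference involving at least 1 clone. The study states that its clones were isolated after ICB treatment. It adds that their expression changes might predate that treatment or have been induced by it, which was not tested here. B04 and B64 are described as resistant to ICB, that is, to antibodies against PD-1 or CTLA-4. All cells, the parental ones included, are of BALBc origin and carry the ClonTracer barcode vector after puromycin selection, and no group is labeled as treated at the time of RNA extraction. The sample titles speak of tumors, whereas the study's methods describe cultured lines in complete RPMI-1640. The methods describe culture in duplicates without saying how replicates A and B were made, so the p-values measure only the spread between these libraries, which may be technical.

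When unfolded protein accumulates in the ER, the sensors IRE1 (gene Ern1), PERK (Eif2ak3) and ATF6 (Atf6) are activated. IRE1 splices the mRNA of Xbp1, and spliced XBP1 and cleaved ATF6 induce chaperones such as BiP (Hspa5). PERK belongs to a family of kinases that phosphorylate the initiation factor eIF2, which lowers translation in general and raises translation of Atf4 mRNA. ATF4 then induces genes of amino acid supply and, under lasting stress, Ddit3 (CHOP). Since much of this control acts on splicing, cleavage and translation, gene-level mRNA counts do not measure the activity of the sensors themselves.

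Promoter elements known to be bound by ATF6 and XBP1 or by ATF4 are shown first, as the sequence context of the ER chaperones and the ATF4 targets. RefSeq promoter windows (GRCm38.p6, 250 bases before to 50 bases after the start) were found for 34 of the 38 genes, not for Slc7a5, Atf6, Manf and Hyou1. The ER stress response element (ERSE) was searched on both strands as CCAAT, 9 bases of any kind, and CCACG. It was present in 7 of 12 ER chaperones (58.3%) and in Syvn1, against 37 of 27025 genes with a window (0.14%). None of the 15 ATF4 targets with a window held it. The stretches below run 5′ to 3′ in the direction of the gene, with the element's fixed letters in capitals, and an element on the opposite strand reads CGTGG, 9 bases, ATTGG.
Hspa5, 65 bases before the start: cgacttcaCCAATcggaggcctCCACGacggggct
Hsp90b1, 107 bases before the start: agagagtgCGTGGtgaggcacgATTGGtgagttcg
Hsp90b1, 212 bases before the start: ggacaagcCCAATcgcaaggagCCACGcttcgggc
Calr, 162 bases before the start: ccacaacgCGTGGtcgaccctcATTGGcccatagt
Canx, 145 bases before the start: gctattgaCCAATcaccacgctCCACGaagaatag
Pdia6, 98 bases before the start: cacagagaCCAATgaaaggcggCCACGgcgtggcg
Dnajc3, 105 bases before the start: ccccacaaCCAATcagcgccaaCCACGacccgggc
Creld2, 126 bases before the start: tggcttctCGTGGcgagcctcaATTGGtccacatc
Syvn1, 44 bases before the start: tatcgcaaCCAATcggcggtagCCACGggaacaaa

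Hspa5 also held TGACGTG, the core of the unfolded protein response element, which 2.22% of the 27025 genes hold and none of the other 33 stress response genes with a window does. Hspa5 is the most abundant ER chaperone in these libraries. The RefSeq start lies downstream of the GENCODE start of the gene (34771970), so part of the window, the ERSE included, falls inside the GENCODE gene. Distances are from the RefSeq start. The 250 bases before that RefSeq start (chr2:34771840-34772089, plus strand) are printed with both elements in capitals.
Hspa5: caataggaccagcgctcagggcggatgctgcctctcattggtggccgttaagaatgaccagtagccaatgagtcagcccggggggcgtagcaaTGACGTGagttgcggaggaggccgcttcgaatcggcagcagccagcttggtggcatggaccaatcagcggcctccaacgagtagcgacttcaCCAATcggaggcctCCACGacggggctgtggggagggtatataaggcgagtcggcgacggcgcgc

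The element bound by ATF4 with a C/EBP partner (CARE, TGATGNAA, searched on both strands, so TTNCATCA on the other) was found in 5 of 15 ATF4 targets (33.3%) and in Herpud1. The share among all genes with a window was 4.51%, and none of the 12 ER chaperones with a window held it. These stretches show the element in capitals in the direction of the gene.
Asns, 23 bases before the start: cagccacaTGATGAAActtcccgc
Chac1, 193 bases before the start: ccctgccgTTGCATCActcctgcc
Vldlr, 200 bases before the start: agcaatagTTGCATCAgcgctcct
Atf3, 110 bases before the start: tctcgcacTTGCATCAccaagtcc
Herpud1, 112 bases before the start: acggcgggTTGCATCAgcccgcac
Trib3, just after the start: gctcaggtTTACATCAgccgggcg
A match is a match of letters and not a measured binding site, and a window without one says only that these letters are not in it.

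Library totals ranged from 19409204 to 23472012 expected counts. Libraries differed in fragment length, read as gene length minus effective length, which was 271.6 to 277.1 bases in both parental libraries and B04 A and 220.7 to 246.1 bases in B04 B and both B64 libraries. Fragment length and line therefore cannot be told apart between the parental line and B64, except through B04, and values within a length class are given beside the main results. Of the colon epithelial markers, Epcam, Krt8, Krt19, Vil1 and Cdh1 were at or below 0.51 TPM in every library, and the list, mostly Krt18 and Krt20, summed to 22.38 to 25.42 TPM outside B64 and to 45.74 and 48.23 TPM in its libraries. Endothelial and erythroid lists summed to at most 0.2 and 2.69 TPM. The leukocyte list, nearly all Cd68, gave 10.59 to 12.23 TPM outside B64 and 40.31 and 36.7 TPM in it, while the defining Ptprc did not exceed 0.01 TPM. The fibroblast list gave 20.3 to 22.89 TPM outside B64 and 9.79 and 11.76 TPM in it. Most of that drop was Col1a1, at 9.29 to 10.54 TPM outside B64 and 1.48 and 2.0 TPM in it. Pdgfrb was 6.84 and 6.71 TPM in the parental line, 10.3 and 9.92 TPM in B04, and 6.46 and 6.56 TPM in B64. Dcn was 0.83 and 0.78 TPM in the parental line, 0.03 and 0.0 TPM in B04, and 0.16 and 0.11 TPM in B64. Cdx2 was 0.87 and 0.56 TPM in the parental line and 0.0 TPM in both clones. The part of these differences between lines in the results below was not tested.

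In B04, most ER chaperone mRNAs were lower than in the parental line. Of the 14 ER chaperones, 10 fell, none rose and 4 were not called, with a median log2 difference of -0.25, against 0.0 over all 13218 genes tested. In bulk RNA a lower level in every cell and fewer cells with a high level cannot be told apart. The ATF4 targets did not move in 1 direction: of 15 tested, 3 rose, 4 fell and 8 were not called, with a median of -0.08. With limma on log2(TPM + 1) their median was 0.04, against 0.06 over all genes on that scale. Among the sensors and their transcription factors, Ern1 and Atf6 fell and Atf4 rose. All 3 ER-associated degradation genes were not called. Over the whole table, 24.1% of tested genes were called in B04 (11.2% higher and 12.9% lower), whereas 20 of the 37 stress response genes tested were called, 4 higher and 16 lower. The rule, here and for every call below, was a DESeq2 Wald test with a Benjamini-Hochberg adjusted p under 0.05. Whole-table shares take in genes with far lower counts, in which a difference of the same size is called less often. Shares at matched counts were not computed for any comparison.

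In B64, by contrast, 1 ER chaperone rose against the parental line and none fell, with a median log2 difference of 0.04. Of the 15 ATF4 targets tested, 4 rose and 6 fell, with a median of 0.0. Ern1 rose, and Atf6, Xbp1, Eif2ak3 and Atf4 were not called. The whole table had 16.3% of tested genes called in B64 (8.87% higher and 7.45% lower), against 12 of the 37 stress response genes, 6 in each direction. Both clones were set against the same 2 parental libraries, so these comparisons share their controls, and the difference between the clones was tested directly.

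The direct test of B64 against B04 called 10 of 14 ER chaperones, all higher in B64, with a median log2 difference of 0.24 against 0.0 over 12855 genes. It called 3 ATF4 targets higher and 4 lower in B64, with a median of -0.01, and Ern1, Atf6 and Sel1l higher. Over all genes 24.3% were called (13.1% higher and 11.1% lower), and 20 of the 37 stress response genes were (16 higher and 4 lower). The plot of all tested genes by library shows the B04 points of most ER chaperones to the left of all others.

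**Figure D1:**
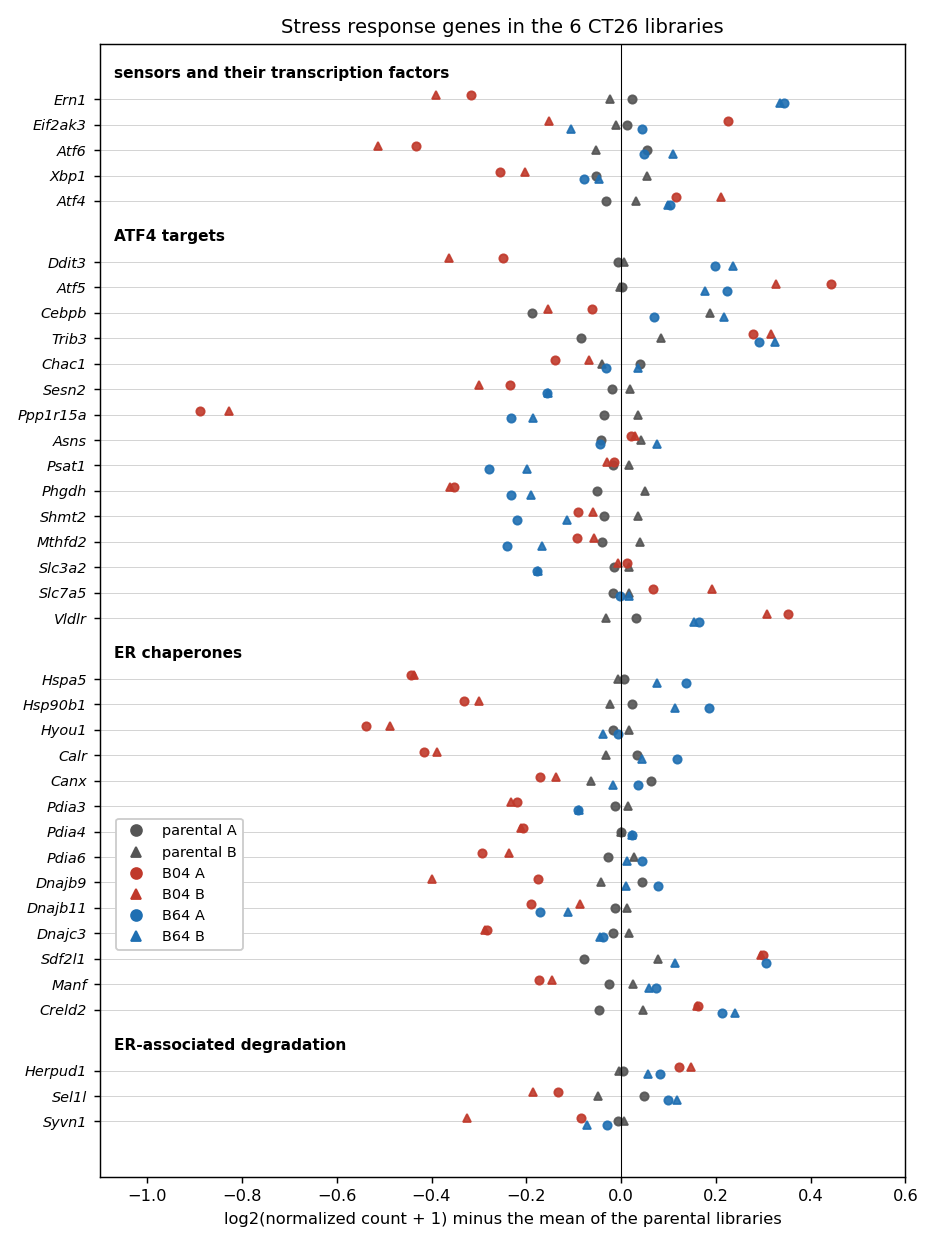
Log2(normalized count + 1) of 37 stress response genes in each of the 6 libraries, minus the mean of the 2 parental libraries (horizontal axis), grouped by role; Atf3, near 0 counts, is left out. Circles are replicate A and triangles replicate B (gray, parental; red, B04; blue, B64). The B04 medians of the 14 ER chaperones were -0.21 and -0.23 and the B64 medians 0.06 and 0.02.

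The sensors were measured first. Ern1 (ENSMUSG00000020715, chr11:106394650-106487852, minus strand, GRCm38) encodes IRE1, the kinase and endoribonuclease that splices Xbp1. Its normalized counts were 5295 and 5134 in the parental line, 4185 and 3980 in B04, and 6615 and 6575 in B64. B04 was lowest and B64 highest, with no overlap between any 2 lines. The log2 difference from the parental line was -0.35 ± 0.06 (SE; n = 2 libraries per line, as throughout) in B04 (DESeq2 adjusted p = 1.36e-07) and 0.34 ± 0.06 in B64 (adjusted p = 5.69e-07, DESeq2). B64 exceeded B04 by 0.69 ± 0.06 (adjusted p = 3.59e-28, DESeq2), a 1.62-fold difference, and all 3 calls were made in each of the 16 alternative analyses. These alternatives overlap, so a tally over them, here and below, is not a count of separate checks. Within the long-fragment class B04 A differed from the parental libraries by -0.32, and within the short-fragment class B64 differed from B04 B by 0.73.

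Atf6 (ENSMUSG00000026663, chr1:170704674-170867771, minus strand) encodes the membrane-bound transcription factor that is cleaved in the Golgi. Normalized counts of Atf6 were 8927 and 8284 in the parental line, 6375 and 6025 in B04, and 8890 and 9272 in B64. The B04 libraries lay below all others, while parental and B64 libraries overlapped. B04 differed from the parental line by -0.47 ± 0.06 on the log2 scale (DESeq2 adjusted p = 8.13e-13), a fall of 27.9%, and B64 was 0.55 ± 0.06 above B04 (adjusted p = 2.49e-17, DESeq2). The difference of B64 from the parental line, 0.08 ± 0.06, was not called (adjusted p = 0.474), with a 95% interval of -0.04 to 0.2.

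Eif2ak3 (ENSMUSG00000031668, chr6:70844515-70905245, plus strand) encodes PERK. The libraries gave Eif2ak3 normalized counts of 490 and 483 in the parental line, 569 and 438 in B04, and 502 and 452 in B64. The lines overlapped in each comparison. The 95% intervals of its log2 difference from the parental line were wide, from -0.25 to 0.36 for B04 and from -0.34 to 0.28 for B64.

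Xbp1 (ENSMUSG00000020484, chr11:5520659-5525893, plus strand) encodes the factor made from the mRNA that IRE1 splices. For Xbp1, normalized counts were 1347 and 1452 in the parental line, 1172 and 1215 in B04, and 1324 and 1354 in B64. B04 lay below the other libraries without overlap, but its log2 difference of -0.23 ± 0.09 did not pass the test (DESeq2 adjusted p = 0.054). The edgeR quasi-likelihood test gave an adjusted p of 0.0207 for the same comparison. Gene-level counts do not separate spliced from unspliced Xbp1.

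Atf4 (ENSMUSG00000042406, chr15:80255184-80257541, plus strand) encodes the main effector of the integrated stress response. Its normalized counts were 15493 and 16174 in the parental line, 17147 and 18318 in B04, and 17005 and 16950 in B64. Both clones lay above the parental libraries. B04 was higher by 0.16 ± 0.05 (DESeq2 adjusted p = 0.0128), a call made in 11 of 16 alternatives, and B64 was not called at 0.1 ± 0.05 (adjusted p = 0.221, DESeq2). Its level was high, at 551.06 to 660.11 TPM over the 6 libraries, against 41.98 to 68.85 TPM for Ern1 and 5.87 to 8.36 TPM for Eif2ak3 (TPM, a level per transcript length).

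The ER chaperones were led by Hspa5 (ENSMUSG00000026864, chr2:34771970-34777547, plus strand), which encodes BiP, the ER member of the heat shock protein 70 family that binds unfolded chains and holds the sensors inactive. Normalized counts of Hspa5 were 41750 and 41333 in the parental line, 30563 and 30685 in B04, and 45694 and 43773 in B64. The B04 libraries were the lowest and the B64 libraries the highest, without overlap. B04 differed from the parental line by -0.44 ± 0.05 on the log2 scale (DESeq2 adjusted p = 4.6e-19), a fall of 26.3%, and the value was -0.44 in B04 A against the parental libraries of the same fragment-length class. B64 exceeded B04 by 0.55 ± 0.05 (adjusted p = 1.67e-29, DESeq2), with 0.54 within the short-fragment class, and its 0.11 ± 0.05 above the parental line was not called (adjusted p = 0.106).

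On the TPM scale the Hspa5 difference between B04 and the parental line was not seen, and the B64 values were larger. Its TPM was 947.12 and 897.27 in the parental line, 767.57 and 1123.26 in B04, and 1657.93 and 1313.82 in B64. The 2 B04 libraries thus lay on either side of the parental ones. The gene length that RSEM used, an average over transcripts weighted by their estimated abundance, was 2552 and 2554 bases in the parental line, 2371 and 1704 in B04, and 1681 and 1974 in B64, so it was shortest in the 3 short-fragment libraries. With limma on log2(TPM + 1) the B04 difference was 0.01 ± 0.19 (adjusted p = 0.978), and with the effective length as an offset in DESeq2 it was -0.04 ± 0.25 (adjusted p = 0.95). B64 exceeded the parental line by 0.68 ± 0.19 with limma (adjusted p = 0.0785) and by 0.65 ± 0.25 with the offset (adjusted p = 0.0685, DESeq2), neither of them called. Over B04 it was higher by 0.67 ± 0.19 with limma (adjusted p = 0.0625) and by 0.69 ± 0.25 with the offset (adjusted p = 0.0346, DESeq2), of which the latter was called. Counts sum over transcripts of the gene and do not use this length. Over the 6 libraries the highest length was 1.52 times the lowest for Hspa5, 1.32 times for Sel1l, 1.3 times for Trib3 and 1.29 times for Pdia6. The cause of the shift in length was not tested.

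**Figure D2:**
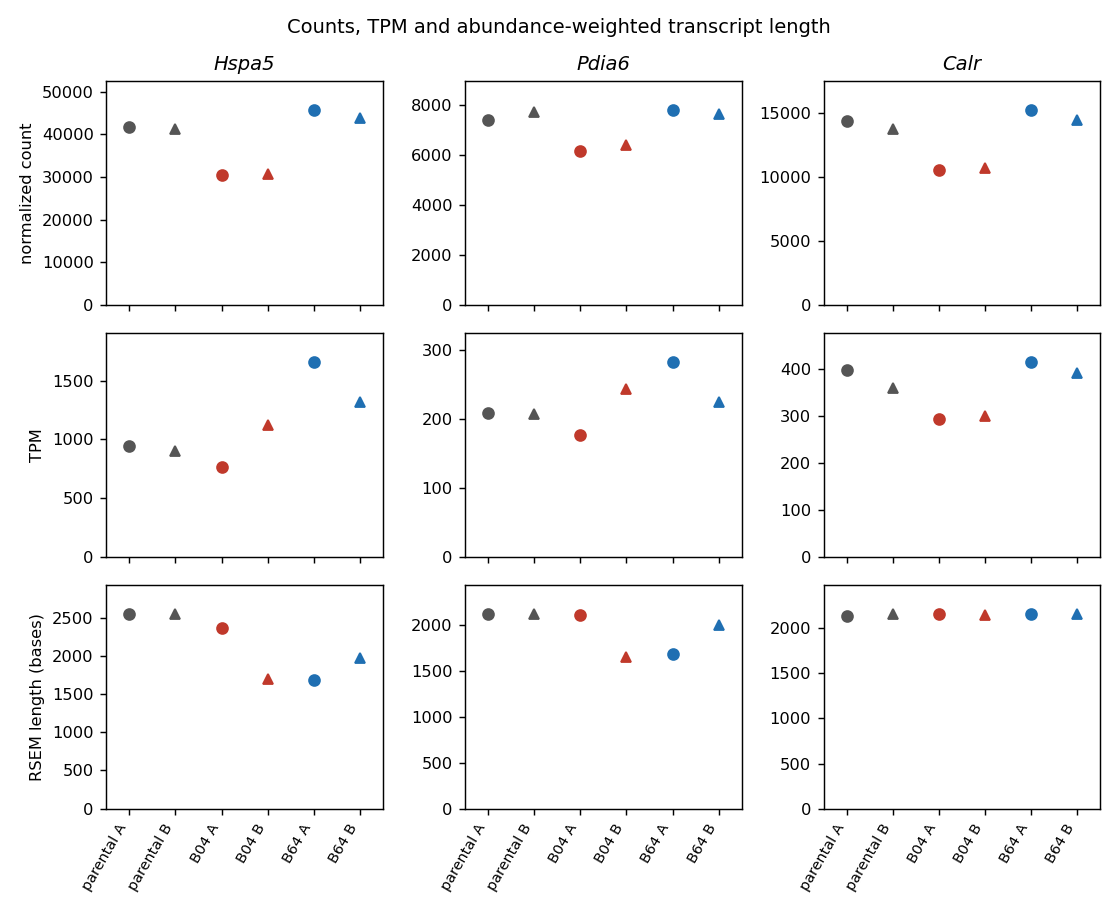
Normalized count (top), TPM (middle) and RSEM gene length in bases (bottom) of Hspa5, Pdia6 and Calr in each of the 6 libraries (circles, replicate A; triangles, replicate B; gray, parental; red, B04; blue, B64), each axis starting at 0. For Hspa5 and Pdia6 the length fell in B04 B and the B64 libraries and TPM rose there, while Calr kept a length of 2132 to 2160 bases and had its lowest count and TPM in B04.

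Hsp90b1 (GRP94, the ER member of the heat shock protein 90 family) had normalized counts of 29788 and 28856 in the parental line, 23310 and 23807 in B04, and 33357 and 31703 in B64. The order of the lines was that of Hspa5, again without overlap. The log2 difference was -0.32 ± 0.05 in B04 (DESeq2 adjusted p = 6.46e-09) and 0.15 ± 0.05 in B64 (adjusted p = 0.02, DESeq2). The B64 value made Hsp90b1 the 1 ER chaperone called against the parental line, but only 7 of 16 alternatives called it, and edgeR gave an adjusted p of 0.0673. B64 exceeded B04 by 0.47 ± 0.05 (adjusted p = 6e-19, DESeq2), a call made in all 16 alternatives.

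Calr and Hyou1 showed the same gap between the clones. Calr encodes calreticulin, the soluble lectin chaperone that binds monoglucosylated glycoproteins. The libraries gave Calr normalized counts of 14322 and 13685 in the parental line, 10489 and 10695 in B04, and 15183 and 14430 in B64. B04 lay below all others, at a log2 difference of -0.4 ± 0.05 from the parental line (DESeq2 adjusted p = 3.43e-12), and B64 exceeded it by 0.48 ± 0.05 (adjusted p = 1.9e-17, DESeq2). Hyou1 encodes GRP170, a nucleotide exchange factor for BiP. For Hyou1, normalized counts were 6932 and 7089 in the parental line, 4827 and 5002 in B04, and 6982 and 6822 in B64. Its difference of -0.51 ± 0.06 in B04 (adjusted p = 4.07e-17, DESeq2) was the largest fall among the ER chaperones, at 29.9%, and B64 overlapped the parental line. For both genes the B04 call and the B64 against B04 call were made in all 16 alternatives, TPM included.

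The other 6 chaperones that fell in B04 had smaller log2 differences. They were Dnajc3 (P58IPK, a co-chaperone of BiP) at -0.29, Pdia6, Pdia3 and Pdia4 (disulfide isomerases) at -0.26, -0.23 and -0.21, and Canx (calnexin) and Manf at -0.16 each. Canx had normalized counts of 8834 and 8092 in the parental line and 7513 and 7686 in B04, and its call (DESeq2 adjusted p = 0.0438) was made in 3 of 16 alternatives. Manf was called in 5 of 16. On the TPM scale Pdia6 was 208.23 and 206.78 in the parental line and 176.8 and 243.99 in B04, so the lines overlapped there. The 4 that were not called were Dnajb9 and Dnajb11 (co-chaperones of BiP), at -0.28 and -0.14, and Sdf2l1 and Creld2, at 0.3 and 0.16. Creld2 had 999 and 1065 normalized counts in the parental line, 1154 and 1152 in B04, and 1195 and 1220 in B64, the only ERSE-bearing chaperone with a B04 value above the parental line.

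Summed over the 14 ER chaperones, normalized counts were 133148 and 131414 in the parental line, 104368 and 105850 in B04, and 141771 and 136758 in B64. The B04 sums were the lowest and the B64 sums the highest. Summed TPM did not separate B04 from the parental line, at 3651.0 and 3447.8 in the parental line, 3041.4 and 3491.8 in B04, and 4512.0 and 4051.8 in B64. Within the long-fragment class 12 of the 14 had a negative difference in B04 A (median -0.21), and within the short-fragment class 12 of 14 were higher in B64 than in B04 B (median 0.24). With the length class as a block, 6 were called lower in B04 and 5 higher in B64 than in B04, against 10 and 10 in the main fit. Over all genes this block called 12.8% and 13.4%, against 24.1% and 24.3% in the main fit. Without B04 replicate A or B the B04 median was -0.24 or -0.21, and the median between the clones was 0.24 or 0.23. In the block fit the B04 difference rests on B04 A alone and that between the clones on B04 B alone. The block, the values within a class and the fit without the other B04 library are thus the same contrast, not separate checks. Without B64 replicate A or B the median between the clones stayed at 0.24. On TPM the calls were fewer too: limma on log2(TPM + 1) called 2 of 14 lower in B04 and 3 of 14 higher in B64 than in B04. Over all genes it called 17.6% and 18.4%. The B04 median on that scale was -0.14 for the ER chaperones and 0.06 for all genes.

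**Figure D3:**
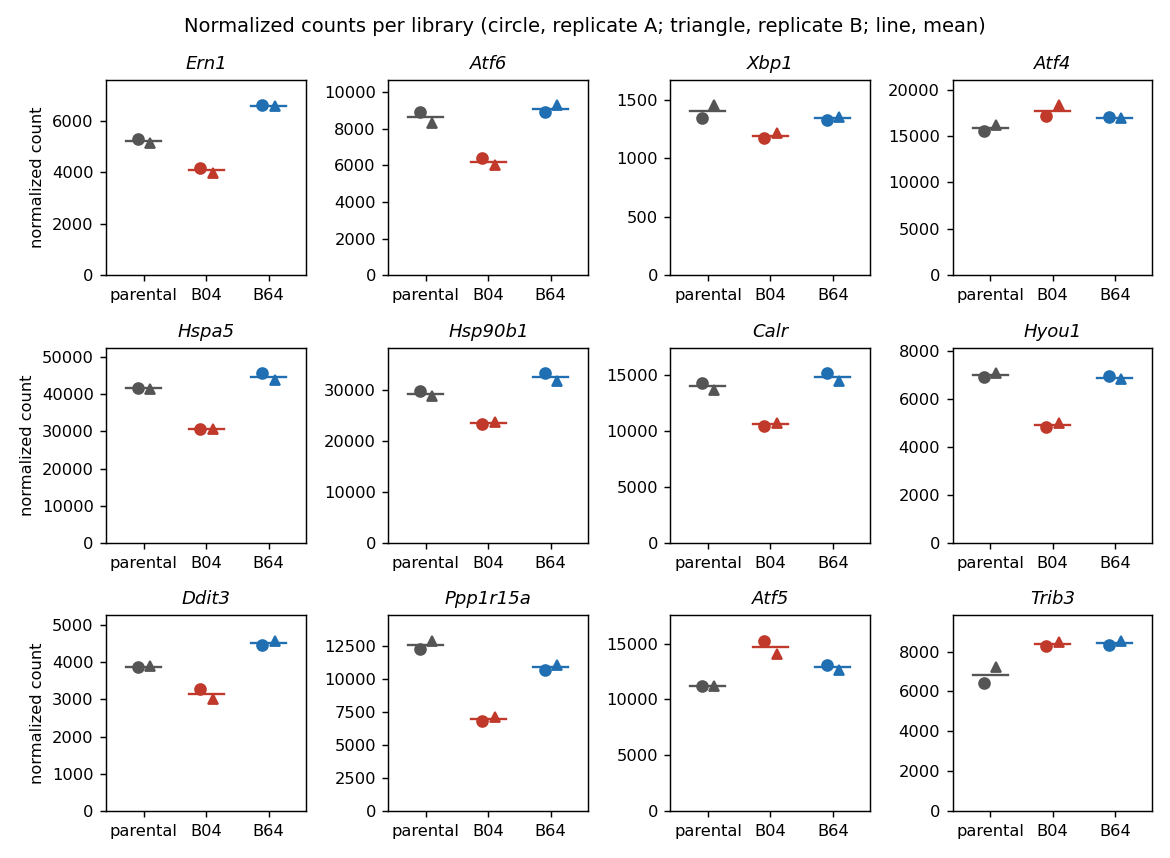
Normalized counts of 12 stress response genes in each library, by line (horizontal axis), with the vertical axis starting at 0; circles are replicate A, triangles replicate B and lines the mean of 2 libraries. Ern1, Atf6, Hspa5, Hsp90b1, Calr, Hyou1, Ddit3 and Ppp1r15a were lowest in B04, and Atf5 was highest there.

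The ERSE-bearing chaperones were set beside the others. Of the 7 ER chaperones with the ERSE letters, 6 fell in B04, with a median log2 difference of -0.29, and 6 were higher in B64 than in B04. Of the 5 with a window but without the letters, 2 fell, with a median of -0.21. Hyou1 and Manf, which also fell in B04, had no window and are in neither group. Over all genes 12.9% fell and 11.2% rose in B04, and 13.1% were higher in B64 than in B04. Whether the letters go with the falls was not tested, and the groups are small. Outside the 38 genes, 29 genes held the letters, and of the 7 that were tested, 2 rose and none fell in B04, with a median of 0.11. Of the ATF4 targets with the CARE letters, 4 were tested, of which 2 rose (Trib3 and Vldlr) and none fell in B04. Of the 10 without the letters, 1 rose and 4 fell.

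Among the ATF4 targets, Ppp1r15a had the largest difference. Ppp1r15a (ENSMUSG00000040435, chr7:45522916-45526268, minus strand) encodes GADD34, the phosphatase subunit that reverses eIF2 phosphorylation. Its normalized counts were 12275 and 12893 in the parental line, 6795 and 7087 in B04, and 10710 and 11060 in B64. Both B04 libraries were well below the others, and B64 lay between. The log2 difference of -0.86 ± 0.06 in B04 (DESeq2 adjusted p = 7.05e-51) was the largest among the 37 genes in any comparison, a fall of 44.9%. In B64 it was -0.21 ± 0.06 (adjusted p = 0.00193, DESeq2), and B64 exceeded B04 by 0.65 ± 0.06 (adjusted p = 4.68e-29, DESeq2). The B04 call and that between the clones were made in all 16 alternatives, and the B64 call in 10.

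Ddit3 (ENSMUSG00000025408, chr10:127290774-127296288, plus strand) encodes CHOP, the factor tied to cell death under lasting ER stress. Normalized counts of Ddit3 were 3862 and 3900 in the parental line, 3266 and 3018 in B04, and 4452 and 4572 in B64. The lines did not overlap, with B04 lowest and B64 highest. The log2 difference was -0.3 ± 0.07 in B04 (DESeq2 adjusted p = 7.61e-05) and 0.22 ± 0.07 in B64 (adjusted p = 0.0101, DESeq2), the latter called in 7 of 16 alternatives. B64 exceeded B04 by 0.52 ± 0.07 (adjusted p = 3.72e-13, DESeq2), called in all 16.

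Atf5 and Trib3 went the other way in B04. Atf5 (ENSMUSG00000038539, chr7:44812256-44816658, minus strand) encodes a relative of ATF4 that is itself under translational control. The libraries gave Atf5 normalized counts of 11235 and 11193 in the parental line, 15241 and 14057 in B04, and 13094 and 12671 in B64. Both clones were above the parental line, by 0.39 ± 0.06 in B04 (DESeq2 adjusted p = 2.27e-10) and by 0.2 ± 0.06 in B64 (adjusted p = 0.00408, DESeq2). B64 differed from B04 by -0.19 ± 0.06 (adjusted p = 0.00588, DESeq2), a call made in 8 of 16 alternatives.

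Trib3 encodes a pseudokinase that restrains ATF4 and CHOP. For Trib3, normalized counts were 6438 and 7239 in the parental line, 8284 and 8505 in B04, and 8351 and 8545 in B64. The clones overlapped each other and lay above both parental libraries. The log2 difference was 0.3 ± 0.06 in each clone (DESeq2 adjusted p = 5.32e-05 in B04 and 4.67e-05 in B64), and the 95% interval of the difference between the clones was -0.12 to 0.14. The B04 value ranged from 0.17 to 0.6 and the B64 value from 0.22 to 0.66 over the 16 alternatives. Vldlr, the very low density lipoprotein receptor, had normalized counts of 4873 and 4659 in the parental line, 6085 and 5897 in B04, and 5340 and 5303 in B64. It rose by 0.33 ± 0.06 in B04 (adjusted p = 6.48e-07, DESeq2), and its 0.16 ± 0.06 in B64 was at the threshold (adjusted p = 0.0497, DESeq2; 3 of 16 alternatives).

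Several ATF4 targets serve amino acid supply. Phgdh, the first enzyme of serine synthesis, had normalized counts of 27492 and 29499 in the parental line, 22310 and 22174 in B04, and 24251 and 24972 in B64. It fell in both clones, with log2 differences of -0.36 ± 0.05 in B04 (DESeq2 adjusted p = 2.04e-10) and of -0.21 ± 0.05 in B64 (adjusted p = 0.000677, DESeq2). Psat1, the next enzyme of that pathway, had 15383 and 15759 in the parental line, 15410 and 15258 in B04, and 12842 and 13578 in B64. It differed by -0.24 ± 0.05 in B64 (adjusted p = 9.94e-05, DESeq2) and was not called in B04, and B64 differed from B04 by -0.22 ± 0.05 (adjusted p = 0.000335, DESeq2).

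Slc3a2, the heavy chain of amino acid transporters, had normalized counts of 14110 and 14422 in the parental line, 14391 and 14199 in B04, and 12608 and 12631 in B64. Its differences from the parental line were 0.0 ± 0.05 in B04 and -0.18 ± 0.05 in B64 (DESeq2 adjusted p = 0.00364 for B64), and B64 differed from B04 by -0.18 ± 0.05 (adjusted p = 0.00193, DESeq2). Mthfd2, of mitochondrial one-carbon metabolism, had 8174 and 8634 in the parental line, 7877 and 8071 in B04, and 7110 and 7478 in B64, and differed by -0.2 ± 0.06 in B64 (adjusted p = 0.00477, DESeq2). Shmt2, the mitochondrial serine hydroxymethyltransferase, had a log2 difference of -0.17 ± 0.05 in B64 (adjusted p = 0.0193, DESeq2), called in 9 of 16 alternatives. Its sign turned on the TPM scale, to 0.04 ± 0.12 with limma (adjusted p = 0.873), and its RSEM length varied 1.23-fold over the libraries. Limma on TPM and the fragment-length class as a block each called 0 of 15 ATF4 targets lower in B64, so these calls were lost. The values moved little for Psat1, Phgdh, Slc3a2 and Mthfd2. With the block they were -0.22 ± 0.1, -0.2 ± 0.1, -0.16 ± 0.1 and -0.24 ± 0.11. With limma on log2(TPM + 1) they were -0.2, -0.18, -0.19 and -0.18, each ± 0.05. The block had larger standard errors and called 2.64% of all genes. Without B64 replicate A the values were -0.2, -0.19, -0.17 and -0.17. Slc7a5, the light chain that pairs with the product of Slc3a2, was not called in any comparison.

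Asns and Chac1 stayed near the parental level. Asns, asparagine synthetase, had normalized counts of 13939 and 14769 in the parental line, 14555 and 14640 in B04, and 13912 and 15128 in B64. The lines overlapped, and the 95% intervals were -0.09 to 0.14 for B04 and -0.1 to 0.13 for B64 on the log2 scale. Chac1, a glutathione-degrading enzyme, had 1912 and 1808 in the parental line, 1688 and 1774 in B04, and 1818 and 1906 in B64. The 95% intervals were -0.27 to 0.06 for B04 and -0.16 to 0.17 for B64, and neither was called.

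Of the rest of the ATF4 targets, Sesn2, a stress-induced inhibitor of mTORC1, was called lower in B04 at -0.27 ± 0.08 (DESeq2 adjusted p = 0.00318) and was not called in B64. Cebpb, which encodes a partner of ATF4, was not called, with 3660 and 4750 normalized counts in the 2 parental libraries, a wide spread between replicates. Atf3 was near 0, at 1.0 and 4.7 normalized counts in the parental line and 0 in the other 4 libraries, and was not tested. The cumulative plot shows the ATF4 targets around the curve of all genes in each comparison and the ER chaperones shifted in those that involve B04.

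**Figure D4:**
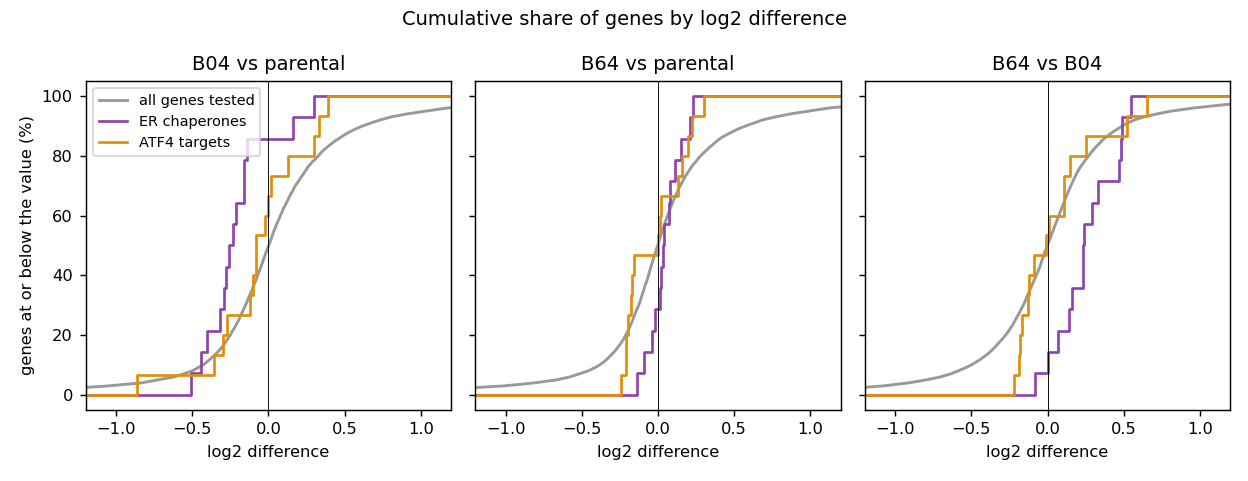
Cumulative share of genes (vertical axis, percent) at or below a log2 difference (horizontal axis) in the 3 comparisons, for all genes tested (gray), 14 ER chaperones (purple) and 15 ATF4 targets (orange). The ER chaperones have medians of -0.25, 0.04 and 0.24, the ATF4 targets of -0.08, 0.0 and -0.01, and all genes 0.0.

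None of the 3 ER-associated degradation genes was called against the parental line in the main DESeq2 fit. On the same counts edgeR called 1 higher and 1 lower in B04, and the fit with GC and length trends removed called 1 lower there. Sel1l, the adaptor of the degradation ligase, had 4654 and 4353 normalized counts in the parental line, 4103 and 3956 in B04, and 4818 and 4881 in B64. It was higher in B64 than in B04 by 0.27 ± 0.06 (DESeq2 adjusted p = 0.00033). On the TPM scale its order changed, with 65.99 and 65.1 in the parental line, 77.52 and 78.0 in B04, and 92.51 and 84.85 in B64. There limma on log2(TPM + 1) called Sel1l higher in both clones than in the parental line, at 0.24 ± 0.06 in B04 (adjusted p = 0.0489) and 0.43 ± 0.06 in B64 (adjusted p = 0.0142), and not between the clones (adjusted p = 0.0954). The B04 call was not made on log2(TPM + 0.1). With the effective length as an offset, DESeq2 called Sel1l higher in B64 than in the parental line, at 0.39 ± 0.08 (adjusted p = 3.09e-05). In B04 that offset gave 0.17 ± 0.08, not called (adjusted p = 0.125, DESeq2). The median of the 3 genes in B04 was -0.16 in the main fit and 0.18 with limma on TPM. Syvn1, the ligase, and Herpud1, which recruits it, were not called in any comparison in the main fit.

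Lists of 148 other genes of these pathways were described by their counts and medians. Over all genes tested, 24.1% were called in B04, 16.3% in B64 and 24.3% in B64 against B04. The translocon, signal peptidase and glycosylation genes, 22 in all, pass new chains into the ER and modify them. Of these 11 fell and none rose in B04 (median log2 difference -0.22), and 9 were higher and none lower in B64 than in B04 (median 0.14). Ssr2, a translocon-associated subunit, had normalized counts of 4504 and 4500 in the parental line, 3251 and 3348 in B04, and 4981 and 4881 in B64, and Sec61a1, the channel subunit, had a log2 difference of -0.31 ± 0.05 in B04 (DESeq2 adjusted p = 8.43e-08). Of 24 further ER folding genes 6 fell and 1 rose in B04 (29.2% called, median -0.08). Among those that fell was Uggt1, the glycoprotein folding sensor, at -0.52 ± 0.08. Of 21 further ER degradation and signaling genes tested, 5 fell and 1 rose in B04 (28.6% called, median -0.1). Both shares called were near that over all genes. The shares called lower were 25.0% and 23.8%, against 12.9% over all genes.

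In that folding list Ero1l, the oxidase that recharges disulfide isomerases, had the smallest adjusted p in B64. Its normalized counts were 11975 and 11683 in the parental line, 10533 and 10238 in B04, and 21950 and 21825 in B64. The B64 libraries were above all others by a wide margin, at a log2 difference of 0.89 ± 0.05 from the parental line (DESeq2 adjusted p = 1.48e-68) and of 1.08 ± 0.05 from B04. Fkbp11, an ER prolyl isomerase, also rose in B64, by 0.65 ± 0.09 (adjusted p = 2.57e-11, DESeq2). In the list as a whole 4 of 24 rose and 3 fell in B64 (29.2% called, against 16.3% over all genes, median -0.01).

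The further ATF4-linked genes, 21 in all, moved in both directions. In B04, 5 rose and 4 fell (42.9% called, median -0.05), and in B64 4 rose and 4 fell (38.1% called, median -0.14). Between the clones 5 were higher and 7 lower in B64 (57.1% called). Nupr1, a stress-induced chromatin protein, had normalized counts of 1685 and 1673 in the parental line, 897 and 975 in B04, and 1810 and 1526 in B64, a difference of -0.84 ± 0.1 in B04 (DESeq2 adjusted p = 1.2e-14). Pycr1, a proline synthesis enzyme, rose in B04 by 0.72 ± 0.11 (adjusted p = 3.3e-10, DESeq2). Ddit4 (REDD1, an inhibitor of mTORC1) rose in B64 by 0.78 ± 0.08 (adjusted p = 5.12e-18, DESeq2). Fgf21, a secreted stress hormone, had 110 and 90 normalized counts in the parental line, 88 and 116 in B04, and 12 and 13 in B64, a log2 difference of -2.99 ± 0.45 (adjusted p = 1.23e-09, DESeq2).

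Of 18 cytosolic aminoacyl-tRNA synthetases, 5 fell and 1 rose in B04 (33.3% called). Between the clones 7 were higher and 1 lower in B64 than in B04 (44.4% called). Nars had a log2 difference of -0.36 ± 0.05 in B04 (DESeq2 adjusted p = 8.83e-13), and Sars was higher in B64 than in B04 by 0.51 ± 0.05 (adjusted p = 2.02e-19, DESeq2). Of the 12 eIF2 kinase, eIF2, eIF2B and phosphatase genes, 3 fell and none rose in B04 (25.0% called). Over all genes 24.1% were called in B04 and 12.9% were lower. The 3 included Eif2s1, the subunit that the kinases phosphorylate, at -0.36 ± 0.06 (adjusted p = 1.4e-07, DESeq2). In B64 1 of the 12 fell (8.3% called, against 16.3% over all genes).

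Chaperones of other compartments were counted in the same way. Of 14 cytosolic heat shock genes tested, 4 rose and 3 fell in B04 (median 0.12), and 6 rose and none fell in B64 (median 0.17). Cryab, a small heat shock protein, had normalized counts of 226 and 253 in the parental line, 591 and 622 in B04, and 272 and 266 in B64, and rose in B04 by 1.34 ± 0.16 (DESeq2 adjusted p = 2.29e-15). Of 12 mitochondrial chaperones and proteases, 4 fell and none rose in B04 (33.3% called, median -0.1). In B64 2 rose and 1 fell (25.0% called). Hspd1, the mitochondrial chaperonin, was lower in both clones, with log2 differences of -0.32 ± 0.05 in B04 and -0.3 ± 0.05 in B64 (adjusted p = 3.03e-10 and 1.65e-08, DESeq2).

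**Figure D5:**
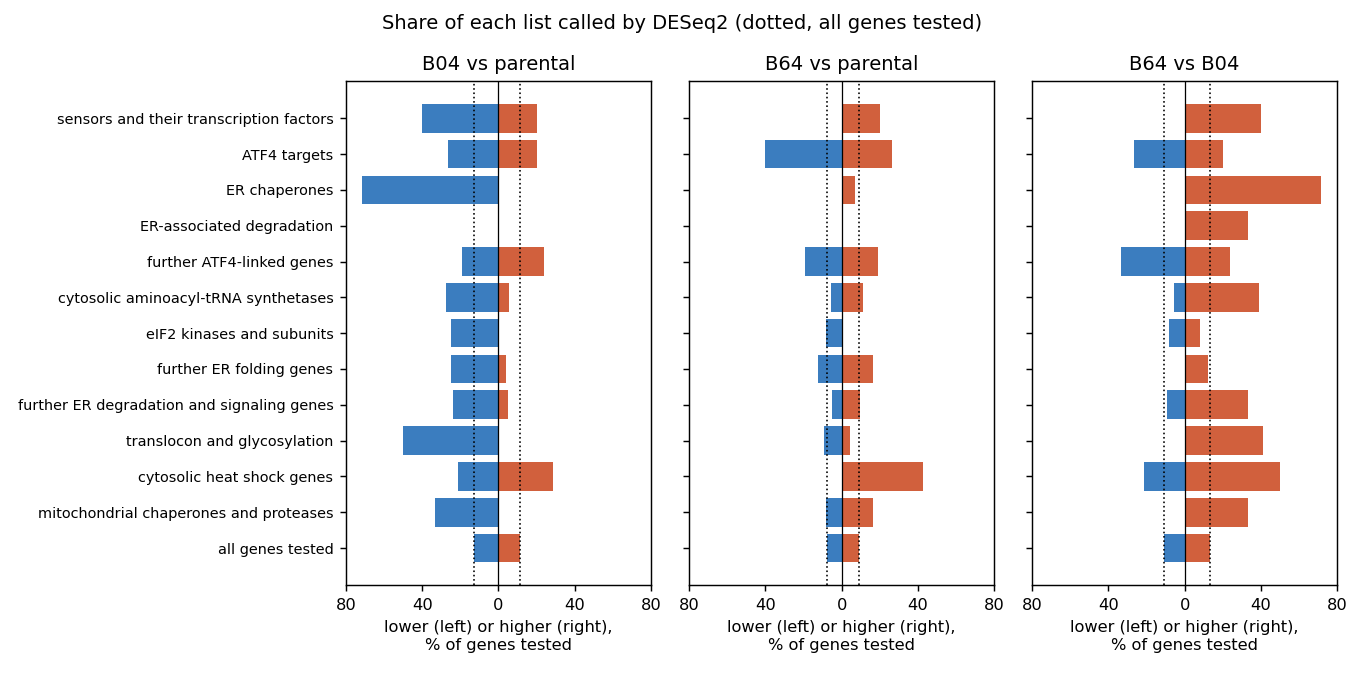
Share of the tested genes of each list that DESeq2 called lower (blue, to the left) or higher (orange, to the right) in the 3 comparisons, as percent of the list's tested genes; dotted lines mark the shares over all genes tested. The ER chaperones had 71.4% lower in B04 and 71.4% higher in B64 than in B04, against 12.9% and 13.1% over all genes. The genes behind the dotted lines were not matched to the lists in expression level.

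The counts of called stress response genes changed when single libraries were left out. Leaving out a library of a compared line leaves 1 library in that line, and fewer genes were then called over the whole table as well. The counts below therefore do not show what a particular library contributes. The 6 genes higher in B64 than in the parental line became 2 without parental replicate A or B64 replicate A and 3 without parental replicate B or B64 replicate B, and the 6 lower became 0 without B64 replicate A and 1 without parental replicate B. The 16 genes higher in B64 than in B04 became 10 without B04 replicate A or B64 replicate A. The 4 genes lower in B64 than in B04 became 0 without B64 replicate A, 1 without B64 replicate B and 2 without B04 replicate A. The 16 genes lower in B04 than in the parental line became 11 to 14 when any 1 library was left out.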

How the data were processed

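RNA-seq libraries from the parental line, B04 and B64 were analysed as 3 groups of 2, named from the sample titles. The authors enriched mRNA with oligo(dT) beads, mapped paired reads to mm10 by STAR and ran RSEM on them; the annotation release and strand setting are not given in the sources used here. Values in the deposited tables include RSEM's expected count, in which a read that fits more than 1 gene is shared out, so genes with near-identical copies are less certain. The deposited TPM values, scaled by effective length and library total, and the lengths were also read; the FPKM values were not used.

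Expected counts were rounded and fitted over the whole table in DESeq2 1.42.0 (R 4.3.3) with all 6 libraries and line as the only term, and p-values were adjusted by Benjamini-Hochberg over all genes with independent filtering. Normalized counts are counts divided by DESeq2 size factors. Calls needed an adjusted p under 0.05, with no minimum fold. A log2 difference is given ± its standard error, and intervals are 95% intervals from it. Genes were matched to GENCODE M21 (GRCm38, the assembly of mm10), which held 53706 of the 53801 identifiers (99.8%), and where a symbol had several identifiers (Ddit3) the one with the longest transcripts was taken. Promoter sequences are from RefSeq (GRCm38.p6).

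The members and lists were chosen with earlier results of these data known. Values in every library are given for Ern1, Eif2ak3, Atf6, Xbp1, Atf4, Hspa5, Hsp90b1, Ddit3, Trib3, Asns and Chac1 and, per comparison, for the called genes with the largest absolute log2 difference, up to 5 per direction; of the other pathway lists at most 2 called genes with the smallest adjusted p per comparison are named. Further members with values were chosen after their values were seen. Alternatives were edgeR 4.0.16 (quasi-likelihood), TMM size factors, a minimum mean normalized count of 10, only the 2 lines compared, the replicate letter or the fragment-length class (cut at 260 bases) as a block, effective length as an offset, limma 3.58.1 on log2(TPM + 1) and log2(TPM + 0.1) for genes with a mean TPM of at least 1, each library left out, and, added after seeing the data, removal of trends with GC content and length. The tests were tested on simulated data. Several alternatives overlap: limma gave nearly the same values on both TPM scales, and the fragment-length block repeats contrasts of the fits without a B04 library. Leaving out a library of the line not compared keeps both compared lines whole. Groups of 2 are too small for outlier tests. Replicates were separate libraries: the chi-square per degree of freedom was 5.33 to 7.17 between replicates and 26.44 or more between lines.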

Additional observations from a re-analysis of the deposited data

Results flagged for a closer look

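For 13 of the genes named above, the effects of the 2 clones against the parental line differed from each other, which is the direct DESeq2 test of B64 against B04. The log2 difference of B64 from B04 was 0.69 for Ern1, 0.65 for Ppp1r15a, 0.55 for Atf6, 0.55 for Hspa5, 0.52 for Ddit3, 0.49 for Hyou1, 0.48 for Calr, 0.47 for Hsp90b1 and 0.15 for Phgdh. It was -0.22 for Psat1, -0.19 for Atf5, -0.18 for Slc3a2 and -0.17 for Vldlr. Ern1, Ddit3 and Hsp90b1 were called in opposite directions in the clones against the parental line. Between the clones Ern1, Atf6, Ddit3, Ppp1r15a, Hsp90b1, Hyou1 and Calr were called in all 16 alternatives, Psat1 in 15, Hspa5 in 14, Slc3a2 in 12, Atf5 and Vldlr in 8 each, and Phgdh in 7.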

How the results depend on the processing

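Of 960 values of named genes under an alternative, 816 kept direction and side of the threshold, 104 lost and 7 gained a call, and 31 changed sign without being called in either analysis, all with reported values of at most 0.08 in size. In 2 a called value changed sign: Hspa5 in B04 against the parental line was 0.01 on log2(TPM + 1) and on log2(TPM + 0.1). Limma on either TPM scale called 7 genes lower in B04, 3 higher and 0 lower in B64, and 7 higher and 2 lower in B64 than in B04. Its medians were 0.04 for the ATF4 targets in B04, and for the ER chaperones -0.14 in B04, 0.07 in B64 and 0.2 and 0.21 between the clones. TPM moved the median of all genes in B04 by less than 0.1, to 0.06 and 0.07. The fragment-length block called 2 higher and 0 lower in B64, and 10 higher and 2 lower in B64 than in B04, with medians of -0.21 for the ER chaperones in B04 and -0.09 for the ATF4 targets in B64. The effective-length offset gave -0.21 for the ER chaperones and -0.03 for the ATF4 targets in B04, and 2 lower in B64 than in B04. With GC and length trends removed the ER chaperone medians were -0.23 in B04 and 0.21 between the clones, and that of the ATF4 targets -0.08 in B64. With edgeR and with TMM factors the ER chaperone median between the clones was 0.23. The causes were not tested.

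With each library left out, the genes called in B04 were 3 to 5 higher and 11 to 14 lower, in B64 2 to 5 higher and 0 to 6 lower, and in B64 against B04 10 to 16 higher and 0 to 4 lower. The ER chaperone medians ran from -0.25 to -0.21, 0.02 to 0.06 and 0.23 to 0.24, and the ATF4 target medians from -0.08 to -0.01, -0.05 to 0.02 and -0.07 to 0.03. Over all genes, edgeR called 4281 in B04, 3038 in B64 and 4201 between the clones, against 3181, 2157 and 3118. The fragment-length block called 1596, 340 and 1625, and limma on log2(TPM + 1) called 1966, 1258 and 2054. A replicate block for the letters A and B left 4 genes higher and 14 lower in B04, 5 higher and 6 lower in B64, and 15 higher and 4 lower in B64 than in B04. Same-lettered libraries deviated together weakly (correlations across 11996 genes of 0.111, 0.0131 and -0.0452). These values do not tell whether the letters mark libraries made together. With 2 libraries per line, standard errors reached 0.16 for Eif2ak3 and 0.17 for Cebpb, and Atf3 could not be tested.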
